A study of Mus musculus and Homo sapiens with 22 samples.

Results

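Lin28A sites over microRNA (miRNA) genes were the subset of Lin28A irCLIP sites that overlapped a RefSeq mouse gene of the class miRNA by at least 1 nt. They numbered 50 of 10990 sites in the list from Mettl3 wild-type (WT) cells and 44 of 11285 sites in the list from Mettl3 knockout (KO) cells. They lay over 59 of 1228 miRNA genes, counting both lists. The genes were grouped by name into the let-7 family (symbols that start with Mirlet7, and Mir98), with 12 genes, and 1216 others. They were also grouped by genomic position, with miRNA genes at most 10000 nt apart on a chromosome forming a cluster.

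The series measured RNA structure in cell fractions of HEK293 and mouse embryonic stem cells, and mapped Lin28A on RNA in mouse embryonic stem cells only. irCLIP crosslinks protein to RNA with ultraviolet light (254 nm at 0.3 J/cm2 here), pulls the protein down with an antibody and sequences the attached RNA. One group was V6.5 embryonic stem cells with Mettl3 WT and the other V6.5 cells with Mettl3 KO, both crosslinked and precipitated with an anti-Lin28A antibody and amplified for 14 cycles. Each group was 1 sample, the anti-GFP controls of both genotypes and the structure data were not analysed here, and the labels do not say whether the KO line is 1 clone.

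miRNAs are cut from a hairpin in a longer transcript, first by Drosha with Dgcr8 in the nucleus and then by Dicer1 in the cytoplasm. Lin28A is an RNA-binding protein of stem cells and early embryos. It is known for holding the let-7 precursor through its terminal loop, where a GGAG motif meets its zinc knuckles, and for recruiting the uridylyl transferases Tut4 and Tut7, after which Dis3l2 degrades the precursor. It also binds many mRNAs. Mettl3 is the catalytic subunit of the complex that writes N6-methyladenosine on mRNA and on some primary miRNA transcripts. The question that the comparison of genotypes addresses is where Lin28A lies on RNA with and without Mettl3.

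The hairpins of the 5 let-7 genes with a site are shown because the position of the sites along them is described next. They are RefSeq sequences of GRCm38.p6, the assembly behind mm10, written 5′ to 3′ on the gene's strand, with GGAG in capitals. Mir98 is the one without it.
let-7f-1, chr13:48537829-48537917, minus strand: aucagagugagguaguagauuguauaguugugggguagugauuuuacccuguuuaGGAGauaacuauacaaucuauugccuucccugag
let-7g, chr9:106178840-106178927, plus strand: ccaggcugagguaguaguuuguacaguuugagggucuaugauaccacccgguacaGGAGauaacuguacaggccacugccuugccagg
let-7d, chr13:48536012-48536114, minus strand: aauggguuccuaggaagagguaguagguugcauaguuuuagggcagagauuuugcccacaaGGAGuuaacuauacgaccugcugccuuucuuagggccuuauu
let-7i, chr10:122985640-122985724, minus strand: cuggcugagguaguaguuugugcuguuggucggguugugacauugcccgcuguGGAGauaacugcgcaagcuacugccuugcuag
miR-98, chrX:151913214-151913321, plus strand: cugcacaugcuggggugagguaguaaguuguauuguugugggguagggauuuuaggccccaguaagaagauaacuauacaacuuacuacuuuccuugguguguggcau

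For comparison, these are hairpins of let-7 genes without a site in either list. let-7a-1 is the neighbour of let-7f-1 and let-7d and has GGAG, and let-7b and let-7c-2 lack it.
let-7a-1, chr13:48538179-48538272, minus strand: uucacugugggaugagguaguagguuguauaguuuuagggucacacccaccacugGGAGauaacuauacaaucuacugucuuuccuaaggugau
let-7b, chr15:85707319-85707403, plus strand: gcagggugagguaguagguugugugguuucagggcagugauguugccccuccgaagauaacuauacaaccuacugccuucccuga
let-7c-2, chr15:85706603-85706697, plus strand: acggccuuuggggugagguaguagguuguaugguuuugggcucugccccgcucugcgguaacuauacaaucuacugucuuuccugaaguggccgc

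The mature 5′ products of the 5 genes with a site share the let-7 seed, bases 2 to 8, which pairs with target mRNAs. The seed is in capitals. The RefSeq table holds 13 genes with a mature product of this seed, and Mir1961 and Mir7k, which have it under other symbols, had no site.
let-7f: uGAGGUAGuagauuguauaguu
let-7g: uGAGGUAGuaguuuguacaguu
let-7d: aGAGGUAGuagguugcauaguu
let-7i: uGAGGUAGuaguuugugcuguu
miR-98: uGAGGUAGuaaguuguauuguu

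Sites in both lists started and ended on steps of 50 nt, so a position is known only to that step. Each site carried a score and a p-value, both the authors' own, and a score describes a site within its list only. The scores of the 50-nt sites were whole numbers, and those of all 1108 WT and 1183 KO sites of 100 nt were whole after multiplication by 2 (tolerance 0.01), as a mean over 50-nt windows would be. The number of reads behind a score is not given, so depth is unknown. No caller, control or threshold for the sites is named in the sources used here, and a gene without a site is a gene without a listed site, which does not show that Lin28A was absent there. Intervals below are exact (Clopper-Pearson) 95% intervals for the counting of sites or genes alone. With 1 sample per genotype there is no replicate check and no test between genotypes. All 10 embryonic stem cell marker genes examined had sites in both lists, Pou5f1, Sox2, Nanog and Lin28a itself among them. None of 5 fibroblast, 4 neural and 4 endoderm markers had one. Of all 21900 protein-coding genes, 15.7% had a WT site and 16.6% a KO site on their strand, or on either where the strand is not given. At such shares, the lack of sites over so few other markers says little. No site lay over Mettl3 itself in either list, so the lists do not check the KO label.

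Of the 12 let-7 family genes, 4 had a site in both lists, 1 had a site in the KO list only and 7 had none. The genes with a site in both lists were Mirlet7f-1, Mirlet7g, Mirlet7d and Mirlet7i, and in each of them the site had the same start, end and strand in both lists. Over Mirlet7f-1 the site covered chr13:48537801-48537900 with a score of 102.5 in the WT list and 181 in the KO list. It was the let-7 site with the highest score in both lists, above 95.1% of all WT sites and 97.9% of all KO sites. Over Mirlet7g, which lies within the protein-coding gene Wdr82 and on its strand, the site covered chr9:106178801-106178900 with a score of 90 in the WT list and 92.5 in the KO list. Over Mirlet7d it covered chr13:48536001-48536100 with a score of 58 in the WT list and 71 in the KO list. These 3 sites were 100 nt wide, and their scores placed them above at least 89.4% of the sites of their list.

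Mirlet7i, a gene with no other annotated gene over it, had a narrower and lower site. It covered chr10:122985651-122985700, with a score of 28 in the WT list and 23 in the KO list, above 68.1% and 62.2% of all sites. Mir98 had a site in the KO list only, at chrX:151913251-151913300, with a score of 26, above 68.2% of KO sites. Mir98 lies within Huwe1, a ubiquitin ligase gene, and on its strand, and the nearest WT site on that strand was 2330 nt away. Within 10000 nt of Mir98 on its strand, but not over it, lay 3 WT and 5 KO sites. Whether the KO site over Mir98 belongs to the miRNA or to the host transcript was not tested. The KO score of Mir98 lay between those of Mirlet7i and Mirlet7d. The deposited p-values of the let-7 sites ran from 2.86e-15 (Mirlet7f-1, KO) to 1.16e-08 (Mirlet7g, KO).

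Over the let-7 family the median score was 74 in the WT list (4 sites) and 71 in the KO list (5 sites). Over the other miRNA genes it was 27 (46 sites) and 24 (39 sites). The median of all sites was 20 in the WT list and 19 in the KO list, and every let-7 site scored above it. Among let-7 sites 3 of 4 WT sites and 3 of 5 KO sites were 100 nt wide, against 6 of 46 and 8 of 39 sites over other miRNA genes.

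**Figure D1:**
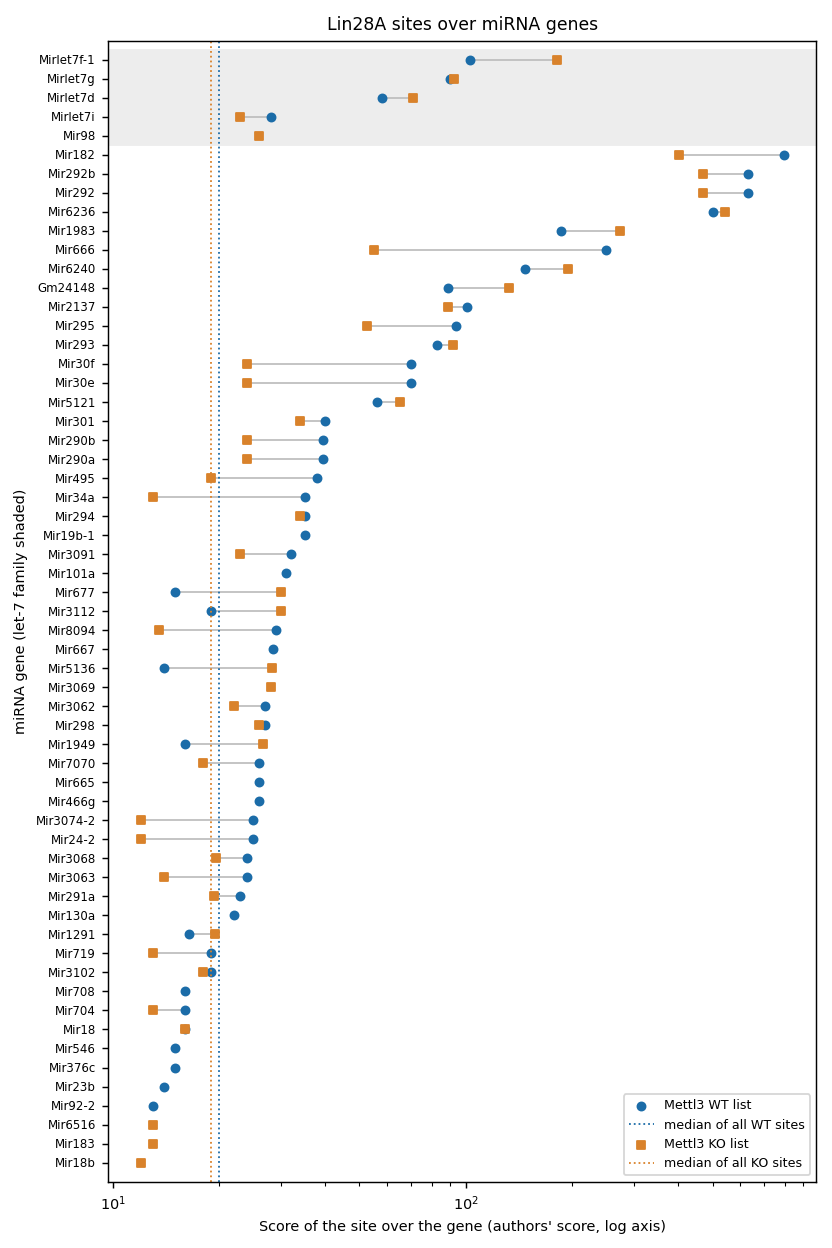
Score of the Lin28A site over each of the 59 miRNA genes with a site (x axis, the authors' score, log scale; circles, Mettl3 WT list; squares, Mettl3 KO list; dotted lines, the median of all sites of each list, 20 and 19; grey lines join the scores of a gene in both lists). The let-7 genes are shaded, and all their sites lie to the right of the medians, while Mir182, Mir292 and Mir6236 have the highest scores.

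The let-7 genes without a site were Mirlet7a-1, Mirlet7a-2, Mirlet7b, Mirlet7c-1, Mirlet7c-2, Mirlet7e and Mirlet7f-2. Mirlet7a-1 shares a 2261-nt cluster on chromosome 13 with Mirlet7f-1 and Mirlet7d. Its nearest site on its strand in either list, 279 nt away, was the site over Mirlet7f-1. Mirlet7f-2 shares a 976-nt cluster on the X chromosome with Mir98. Within that cluster only Mir98 had a site, and only in the KO list. The other 5 had no site on their strand within 10000 nt on either side in either list. The clusters of let-7a-2 with miR-100, let-7c-1 with miR-99a, and let-7e with miR-99b and miR-125a had no site over any member, nor had that of let-7c-2 with let-7b. Whether these transcripts were made in the cells was not measured by the files used here, so no site and no transcript cannot be told apart.

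Along the let-7 hairpins the sites lay over the loop, taken here as the bases between the mature 5′ and 3′ products. The let-7f-1, let-7d and let-7i sites covered the whole loop of 34, 32 and 34 nt in both lists, and the let-7g site covered 33 of 34 nt. The KO site over Mir98 covered its whole loop of 36 nt, none of the 5′ product and 14 nt of the 3′ product. The 4 GGAG motifs of the let-7 hairpins with a site in both lists all lay in the loop, 3 nt (let-7g) or 4 nt before the 3′ product, and all 4 lay inside the site in both lists. The sites differed in the arms: over let-7d both mature products were covered whole, over let-7f-1 all of the 3′ product and 12 nt of the 5′ product, and over let-7g all of the 5′ product and none of the 3′ product. Over let-7i the 50-nt site held the loop with 3 nt of the 5′ product and 13 nt of the 3′ product. Sites this wide that overlap a hairpin tend to cover its middle, so loop cover is in part fixed by how sites were chosen.

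**Figure D2:**
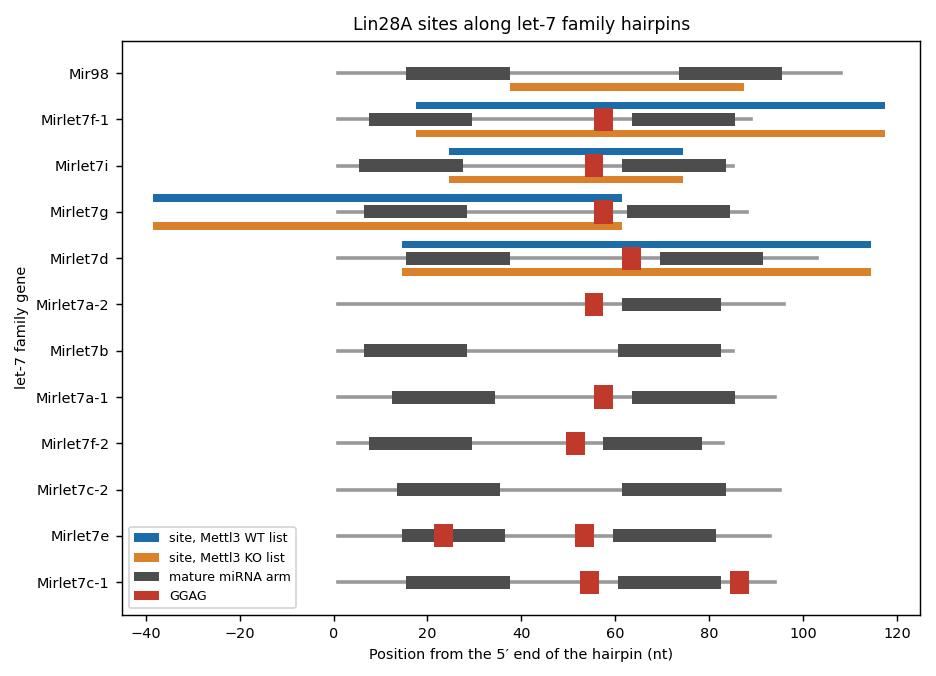
Lin28A sites along the 12 let-7 family hairpins (x axis, nt from the hairpin's 5′ end; grey line, hairpin; dark boxes, mature products in the RefSeq table; red boxes, GGAG; blue bars above, WT sites; orange bars below, KO sites). In all 5 hairpins with a site the bar spans the loop between the mature products (all but 1 nt of it in let-7g), and in 4 of them it holds the GGAG; the let-7a-2 entry has 1 mature product.

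The let-7 hairpins with a site had loops of 32 to 36 nt (median 34). Of the 7 without one, 6 have both mature products in the table, and their loops were 32 nt in let-7b, 29 in let-7a-1, 28 in let-7f-2, 26 in let-7c-2 and 23 in both let-7c-1 and let-7e (median 27). The groups met at 32 nt, the loop length of let-7d (with a site) and of let-7b (without). GGAG stood in the loop in 4 of the 5 hairpins with a site and in 4 of these 6 without one, so both groups were mostly made of hairpins with the motif. Loop lengths and motifs are properties of the reference sequences and carry no measurement error. Over all 644 hairpins with both products in the table the median loop was 16 nt, and 8.07% had GGAG in the loop.

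Among the other miRNA hairpins with a site, GGAG was found anywhere in 20 of 45, or 44.4%, against 44.5% of all 1005 hairpins. In the loop it was found in 4 of 31, or 12.9%, against the 8.07% above. AAGNNG, where N is any base, stood in 13 of 45 (28.9%) against 28.3% of all hairpins, and in 4 of 12 let-7 hairpins. UGUG stood in 23 of 45 (51.1%) against 44.9% of all, and in 7 of 12 let-7 hairpins. UGAU, added after the values were seen, stood in 16 of 45 (35.6%) against 25.7% of all, and in 4 of 12 let-7 hairpins. Motifs were searched on the hairpin's own strand, since the hairpin is the RNA, and GGAG can overlap UGUG by a base and can lie inside AAGNNG, as it does in let-7d. A match is a run of letters and not a measured contact.

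Over the wider set of hairpins the sites covered, on average, more of the loop and of the 3′ product than of the 5′ product. Of the hairpins with both mature products in the table and a site on their strand, 28 had a WT site, and on average the site covered 47.4% of the 5′ product, 85.5% of the loop and 79.2% of the 3′ product. More of the 3′ than of the 5′ product was covered in 18 of the 28, and less in 5. In the KO list the 27 such hairpins had averages of 49.5%, 74.7% and 71.4%, with more of the 3′ product in 15 and less in 6. Position is known to 50 nt only, against hairpins with a median length of 79 nt, and the 4 to 5 let-7 hairpins are part of these averages. A site chosen for overlapping so short a hairpin tends to cover its middle, so high loop cover is in part fixed by that choice. The cover expected from position alone was not computed.

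**Figure D3:**
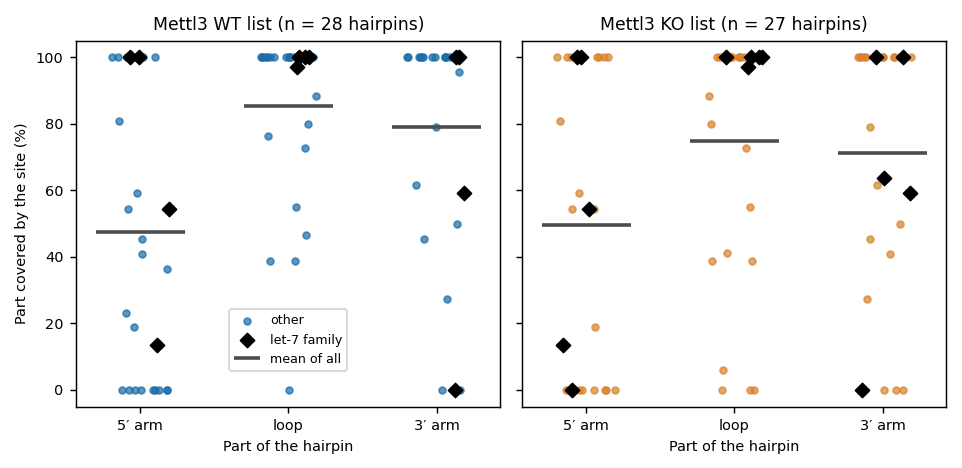
Percent of the 5′ product (5′ arm), the loop and the 3′ product (3′ arm) covered by the Lin28A site, for each hairpin with both products known (points; black diamonds, let-7 family; bars, mean of all; left, 28 hairpins in the WT list; right, 27 in the KO list; points are spread sideways for legibility). Loops and 3′ arms sit mostly at full cover, and 5′ arms are spread from none to full.

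The highest scores over miRNA genes were outside the let-7 family. Over Mir182, of the miR-183, miR-96 and miR-182 cluster known from sensory organs, the site at chr6:30165901-30165950 scored 798 in the WT list, rank 47 of 10990, and 403 in the KO list, rank 88 of 11285. The site over Mir292, a gene of the embryonic miR-290 cluster, scored 631 in the WT list and 469 in the KO list. Mir6236 had 503 in the WT list and 543 in the KO list. These 3 genes had the highest scores over miRNA genes in both lists, though in a different order. They were followed in the WT list by Mir666 (249), Mir1983 (186) and Mir6240 (147), and in the KO list by Mir1983 (273), Mir6240 (195) and Mirlet7f-1 (181). Mir2137 scored 101 in the WT list and 89 in the KO list. Gm24148, a miRNA entry within the nucleolin gene Ncl and on its strand, scored 89 and 132.5. Whether each of these annotated entries yields a miRNA was not tested.

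The hairpins of the leading pair with a sequence are shown to set them beside let-7. Neither holds GGAG, and the site covered bases 43 to the last of the miR-182 hairpin and bases 13 to 62 of the miR-292 hairpin in both lists, marked by capitals. In miR-182 this is the 3′ product with 7 of the 18 nt of the loop.
miR-182, chr6:30165918-30165992, minus strand: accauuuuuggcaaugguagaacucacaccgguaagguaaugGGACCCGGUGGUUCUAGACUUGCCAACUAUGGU
miR-292, chr7:3219189-3219270, plus strand: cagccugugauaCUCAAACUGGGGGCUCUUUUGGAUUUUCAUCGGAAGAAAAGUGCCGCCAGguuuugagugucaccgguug

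The miR-290 cluster on chromosome 7 (chr7:3218626-3220841) is the main miRNA cluster of early mouse embryos and embryonic stem cells, and several of its products share a seed that is known for promoting the cell cycle. It had more genes with a site than any other cluster in either list. Of its 9 genes, 8 had a site in both lists, under 6 sites per list, all on the plus strand. The site over Mir292 scored 631 in the WT list and 469 in the KO list, and that over Mir295 scored 94 and 52.5. Over Mir293 the scores were 83 and 92, and over Mir294 they were 35 and 34. Over Mir290a the scores were 39.5 and 24. Over Mir291a the score was 23 for a 50-nt site in the WT list and 19.3 for a 150-nt site in the KO list. Within the cluster Mir292 stood far above the next site in both lists, and Mir291b was the gene without a site. Mir290b and Mir292b are annotated on the minus strand, opposite to the sites that lie over Mir290a and Mir292, so 6 of the 8 genes had a site on their own strand.

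The sites within the annotated host transcript all touched miRNA genes. The host RNA D7Ertd143e spans 2232 nt, of which its miRNA genes cover 476 nt, or 21.3%, and each list held 5 sites within it, all over miRNA genes and none between them. The remaining site of each list lay over Mir290a, which starts before the annotated host. A further KO site, with a score of 12, lay 225 to 176 nt before Mir290a, over no miRNA gene. The lncRNA Mirc35hg, host of miR-182, showed the same arrangement, with 1 WT site and 2 KO sites in 15486 nt, all over miRNA genes, which cover 1.62% of it. A site counts with 1 nt of overlap, so the share of places where a site would touch a miRNA gene is larger than these percentages. That share was not computed.

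**Figure D4:**
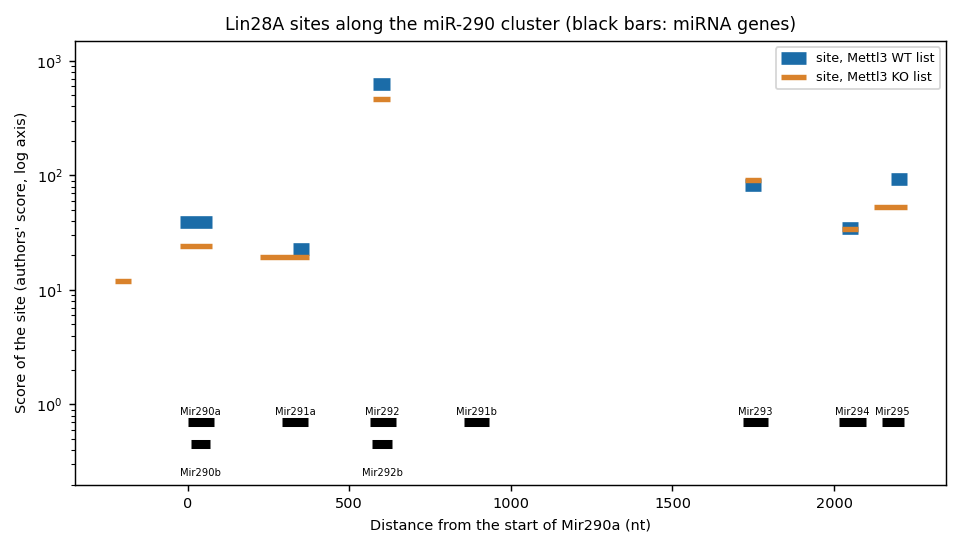
Lin28A sites along the miR-290 cluster (x axis, nt from the start of Mir290a; y axis, the authors' score on a log scale; each bar spans a site, thick blue in the WT list and thin orange in the KO list; black bars below the scores, miRNA genes, with the minus-strand genes Mir290b and Mir292b on a lower line). Each of the 6 sites per list over miRNA genes has a partner in the other list, and the pair over Mir292 is the highest.

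The mature products of this cluster fall into groups by seed, printed with the seed in capitals. AAGUGCU is shared by miR-291a, miR-294 and miR-295, 3 of the 5 genes in the table that have it, and CUCAAAC by the 5′ products of miR-290a, miR-292a and miR-293, which are all the genes that have it.
miR-291a-3p: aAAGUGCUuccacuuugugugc
miR-294-3p: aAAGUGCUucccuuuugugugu
miR-295-3p: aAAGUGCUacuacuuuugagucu
miR-290a-5p: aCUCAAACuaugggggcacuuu
miR-292a-5p: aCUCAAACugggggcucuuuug
miR-293-5p: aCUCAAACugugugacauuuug
Sites over other genes with a common seed were fewer. Mir18 (16 in both lists) and Mir18b (12, KO list only) share AAGGUGC, and Mir301 (40 in the WT list, 34 in the KO list) and Mir130a (22, WT list only) share AGUGCAA.

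Of 105 genes in other miRNA groups known in embryonic stem cells, 4 had a WT site (3.81%) and 2 a KO site (1.90%), beside 4.40% and 3.91% of all miRNA genes. The pooled shares mostly describe the 81 genes named last below, so they do not stand for the smaller clusters. In the miR-17 to miR-92 cluster, which is known to be driven by Myc, 2 of 6 genes had a WT site, Mir18 with a score of 16 and Mir19b-1 with 35, and 1 had a KO site, Mir18 with 16. In its relative on the X chromosome, from miR-106a to miR-363, Mir92-2 had a WT site (13) and Mir18b a KO site (12), scores equal to the lowest over miRNA genes in those lists. None of the 5 miR-302 and miR-367 genes, the 3 genes of the miR-106b to miR-25 cluster or the 4 miR-15 and miR-16 genes had a site. Of 81 genes in the groups of miR-297, miR-466, miR-467 and miR-669, many of them within Sfmbt2, Mir466g had a WT site (26). None of 19 miRNA genes known from muscle, liver, neurons or blood had a site in either list.

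Some genes in the miRNA clusters of the imprinted Dlk1 to Dio3 region on chromosome 12 had a site. In the cluster of 39 genes at chr12:109709060-109747960, 4 genes had a WT site and 2 a KO site. Over all 1228 miRNA genes the counts were 54 (4.40%) and 48 (3.91%). As a share of genes, this cluster was above all miRNA genes in both lists, though on few genes. Mir666 scored 249 in the WT list, where it was the fourth site by score over a miRNA gene, and 55 in the KO list. Mir495 scored 38 in the WT list and 19 in the KO list. Mir667 (28.5) and Mir376c (15) had a WT site only, as had Mir665 (26) in the neighbouring cluster of 16 genes. Thus 3 of the 5 WT sites of the region had no KO partner, as had 12 of all 50 WT sites over miRNA genes. All 5 WT sites and both KO sites were on the strand of the miRNA genes. With 1 library per genotype, a difference between genotypes in this region and a difference between libraries cannot be told apart.

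Of the 59 genes, 43 had a site in both lists, 11 only in the WT list and 5 only in the KO list. Over all sites, 75.1% of WT sites and 72.9% of KO sites overlapped a site of the other list. The 43 include Mir290b, Mir292b, Mir3074-2 and Mir30f, whose sites lay on the opposite strand. Among the 11, 6 had a score at or above the median of their list: Mir19b-1, Mir101a (31), Mir667, Mir466g, Mir665 and Mir130a. The others were Mir708 (16), Mir546 (15), Mir376c, Mir23b (14) and Mir92-2. Among the 5, Mir3069 (28) and Mir98 (26) were above the median of the KO list, and Mir183 (13), Mir6516 (13) and Mir18b (12) were below it. All genes in 1 list only had scores of 35 or less, while the genes in both lists reached 798 in the WT list and 543 in the KO list. Their medians were 35 in the WT list and 26 in the KO list for genes in both, against 22 for the WT-only and 13 for the KO-only genes. Whether sites in 1 list only score lower over all genes was not compared. Mir24-2, a miR-24 gene, is counted in both lists, but its sites did not overlap: the WT site (score 25) covered chr8:84208851-84208900 and the KO site (score 12) the 50 nt before it.

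Most sites over miRNA genes were found in both lists, as were most sites in general. Of the 50 WT sites 38 overlapped a KO site on the same strand, which is 76.0% (95% interval 61.8 to 86.9), and 75.1% of all WT sites did. In the KO list 38 of 44 did so with a WT site, which is 86.4% (72.6 to 94.8), and 72.9% of all KO sites did. Both backgrounds lie inside the intervals. Start, end and strand were identical for 31 sites. Across the 38 overlapping pairs the scores had a Spearman rho of 0.75, and across all 8308 overlapping pairs also 0.75, as a description across sites, which are not independent replicates and share their library.

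At or above the median score of their list were 36 of 50 WT sites (72.0%) and 32 of 44 KO sites (72.7%) over miRNA genes. The scores of the sites over miRNA genes leaned toward the top of their lists, but the lowest equalled the lowest of all sites. In the WT list they ran from 13 to 798 with a median of 28.25, and all sites from 13 to 15435 with a median of 20. In the KO list they ran from 12 to 543 with a median of 26, and all sites from 12 to 11860 with a median of 19. Among the top 10% of scores (60 and above in the WT list, 57 and above in the KO list) were 13 of 50 WT sites, or 26.0% (14.6 to 40.3), against 10.1% of all WT sites, ties included. In the KO list 12 of 44 were in the top 10%, or 27.3% (15.0 to 42.8), against 10.1% of all KO sites. Both intervals lie above these backgrounds. Sites over transfer RNA genes had shares of 28.1% and 33.1%, sites over snoRNA genes 20.2% and 35.6%, and sites over protein-coding genes 8.38% and 8.09% in the WT and KO list, so the miRNA shares were near those of the other small RNA classes.

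**Figure D5:**
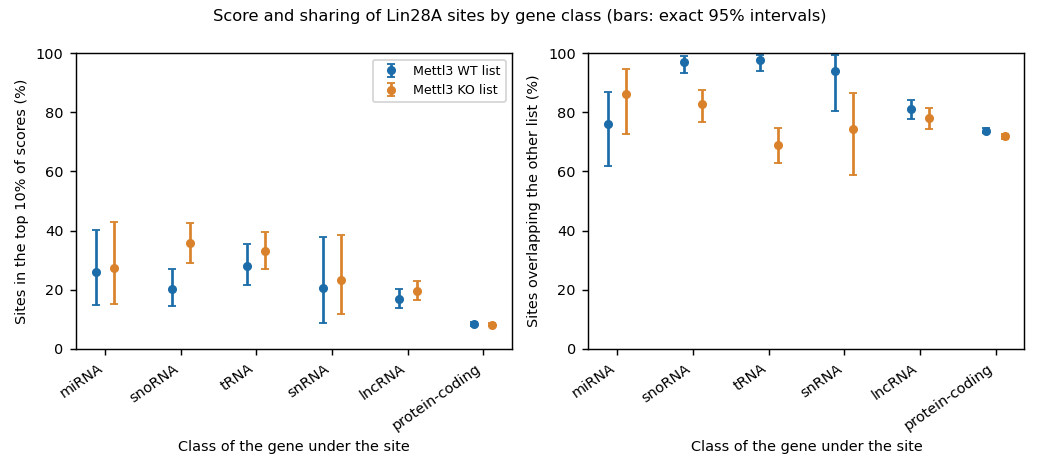
Lin28A sites by the class of the gene under them: percent in the top 10% of scores of their list (left) and percent that overlap a site of the other list (right), with exact 95% intervals for the counting of sites, in the WT list (blue) and the KO list (orange). The miRNA shares in the top 10%, 26.0% and 27.3%, lie above those of protein-coding genes and within the range of the other small RNA classes.

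The share of miRNA genes with a site was at or above those of snRNA and lncRNA genes in both lists, with overlapping intervals. In the WT list 54 of 1228 had one, which is 4.40% (3.32 to 5.70), against 10.0% of the genes of all other classes. Of the same genes 48 had a KO site, which is 3.91% (2.90 to 5.15), against 10.6%. Genes differ in length, with medians of 80 nt for miRNA genes and 17146 nt for protein-coding genes. Transfer RNA genes, with a median of 72 nt, had a site in 39.3% of cases in the WT list and 54.7% in the KO list. The shares were 3.19% (2.19 to 4.47) and 3.88% (2.78 to 5.27) for snRNA genes, with a median of 107 nt. They were 3.12% (2.82 to 3.44) and 3.08% (2.79 to 3.39) for lncRNA genes, which are far longer, with a median of 8427 nt. Of 943 miRNA clusters and single genes, 40 had a WT site, 36 a KO site and 33 both, and 16 of the 100 clusters of 2 or more genes had a site in either list.

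Most sites over miRNA genes were 50 nt wide. In the WT list 41 of 50 sites were 50 nt wide (82.0%, 68.6 to 91.4), and 86.0% of all WT sites were. In the KO list 29 of 44 were (65.9%, 50.1 to 79.5), and 85.5% of all KO sites were. The WT interval holds the share of all WT sites, and the KO interval lies below the share of all KO sites. The intervals of the 2 lists overlap. Other small RNA classes also had a lower share of 50-nt sites in the KO list than in the WT list, with 58.4% and 42.6% over snoRNA genes and 74.3% and 62.3% over transfer RNA genes in the WT and KO list. No WT site and 4 KO sites were 150 nt wide, the latter over Mir291a, Mir3068, Mir5136 and Mir1949. Each of these 4 genes had a 50-nt site in the WT list. Over Mir3068 the WT site touched the first 7 nt of the hairpin and the KO site covered all 79 nt, so the width decided how much of this hairpin was covered.

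The sites had the strand of the miRNA. There were 30 plus and 20 minus sites in the WT list and 24 plus and 20 minus in the KO list. All 48 WT and 43 KO sites over genes whose strand the reference tables give lay on the strand of at least 1 miRNA gene under them. The 4 genes on the other strand in each list, Mir290b, Mir292b, Mir3074-2 and Mir30f, each lie opposite to another miRNA gene on the strand of the site.

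Many of the sites also lay over other annotated genes. In the WT list 27 of 50 lay over a protein-coding gene and no other small RNA gene, 5 over a lncRNA gene only, 4 over another small RNA gene and 14 over no gene of another class. For the 44 KO sites the counts were 23, 5, 5 and 11. The sites over a second small RNA gene were those over Mir1983, with a transfer RNA gene (186 in the WT list, 273 in the KO list), Mir5121, with Snord33 (56 and 65), Mir1291, with Snora34 (16.5 and 19.5), Mir5136, with Snora57 (14 and 28.3), and Mir3069, with Scarna13 (28, KO list only). For these a site cannot be assigned to the miRNA rather than to the other small RNA. Likeness of other miRNA entries, such as Mir6236, Mir6240 and Gm24148, to abundant RNAs elsewhere in the genome was not checked. Sites over a protein-coding gene were on its strand in 19 of 30 WT and 16 of 26 KO cases and on the other strand in 7 and 7 (unknown for the rest), of which 6 per list were the miR-290 sites, opposite to Nlrp12. Of the sites on the host's strand, that over Mir301 lay in Ska2 (40 and 34), that over Mir30e in Nfyc (70 and 24) and that over Mirlet7g in Wdr82. The reference gives gene bounds without exons, so a site on such a host cannot be placed in an intron or an exon.

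The genes of the let-7 pathway itself were also searched for Lin28A sites. Of 21 genes of the Lin28 and let-7 pathway, 13 had a site on their strand in the WT list and 14 in the KO list, with 73 and 72 sites. Among all 21900 protein-coding genes, expressed in these cells or not, the shares counted the same way were 15.7% and 16.6%. Where the tables do not give a gene's strand, as for Igf2bp1, sites on either strand were counted. Igf2bp1, an mRNA-binding protein gene that let-7 is known to repress, had 31 WT and 30 KO sites. Trim71, the classical let-7 target known as Lin41, had 14 and 9, and Lin28a itself had 6 and 5. Mycn had 7 and 3, Ccnd1, which encodes cyclin D1, 3 and 3, and E2f5, with a top score of 215 in the WT list and 163 in the KO list, 1 and 2. Tut4, which uridylates the let-7 precursor, had 1 and 3 and Trim25, a Lin28A cofactor, 2 and 4. Lin28b, Tut7, Dis3l2, Hmga2, Igf2bp2, Myc and Arid3a had none in either list.

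Of 19 genes of miRNA processing, 13 had a site on their strand in each list (60 WT and 66 KO sites), 12 of them in both, beside the 15.7% and 16.6% of all protein-coding genes. The RNA helicase genes of the Drosha complex, Ddx17 and Ddx5, had 13 and 10 WT sites and 12 and 13 KO sites. Khsrp, whose product binds the let-7 loop, had 12 and 11, Ran, the export GTPase, 7 and 7, and Drosha 4 and 6. Dicer1 had 1 and 1, Ago2 1 and 2, and Dgcr8 1 and 0. Tarbp2, Prkra, Ago1, Ago3 and Ago4 had none in either list. A list of 16 genes of N6-methyladenosine writers and readers also held the demethylase genes Fto and Alkbh5. Of the 16, 5 had a site on their strand in the WT list and 7 in the KO list, with 19 and 24 sites. Fto was counted in both lists and Alkbh5 in the KO list only. The shares of all protein-coding genes were the same 15.7% and 16.6%. Hnrnpa2b1, whose product is known to bind methylated primary miRNAs, had 13 and 14, and Wtap, a subunit of the Mettl3 complex, 1 and 2 with top scores of 577 and 580.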

How the data were processed

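The analysis used the deposited site lists of Lin28A irCLIP from Mettl3 WT and KO embryonic stem cells, 1 sample each. Each site had a position with its strand, and a score with its p-value. The score deposited by the authors has no stated unit, and wider sites had scores like means over 50-nt windows. The p-value deposited by the authors, at most 1.06e-05 over miRNA genes, was printed as given and not used as a test. Bowtie2, UMI-tools and the build mm10 are named, without versions, in the submitters' processing notes, and no caller, control or threshold is named in the sources used here.

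Sites were placed on RefSeq gene bounds of GRCm38.p6, with miRNA strand and sequence from RefSeq tables, which held the strand of 57 and a hairpin of 50 of the 59 genes with a site. Overlaps were counted in Python 3.11.15 with pandas 2.3.3 and numpy 2.4.6, and exact intervals in scipy 1.17.1. Figures used matplotlib 3.10.9. The overlap and cluster steps were tested on simulated data. No test compared the genotypes.

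The members and lists were chosen with earlier results of these data known. Genes were named by rule: all let-7 genes, the 10 miRNA genes with the highest scores of either list, genes in 1 list only at or above its median, and members of the lists with a site. Other miRNA genes, among them those of the miR-290 cluster, the chromosome 12 clusters and the overlaps with other small RNAs, were named after their values were seen. Alternatives were the overlap needed, a score minimum, site width, strand, neighbouring genes and cluster distance, and sites over no other small RNA gene were added after seeing the data.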

Additional observations from a re-analysis of the deposited data

How the results depend on the processing

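Under the alternatives tried, 38 of 42 alternative values stayed within the limits set for them and 4 moved. Keeping only sites over no gene of another class left 14 WT and 11 KO sites, and keeping only 50-nt sites left 29 KO sites. Requiring identical start, end and strand lowered the shared share of KO sites over miRNA genes from 86.4% to 70.5%. Each of these 4 moves follows from the narrower definition. The limits were wide, and values within them were not all unchanged. Keeping only sites at or above the median score lowered the sites over miRNA genes from 50 to 36 (WT) and from 44 to 32 (KO). It lowered the miRNA genes with a WT site from 54 to 40. Requiring identical start, end and strand lowered the shared share of WT sites over miRNA genes from 76% to 62%. All of these counted as within the limits. The numbers of let-7 genes with a site, 4 in the WT list and 5 in the KO list, were the same within 100 nt of the gene and among sites at or above the median score. Without the sites over a second small RNA gene, chosen after seeing the data, 46 WT and 39 KO sites were left. No paired analysis was possible because each genotype had 1 sample.

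The limits are those of the lists. Depth and the threshold of the lists are unknown, so a gene with a site in 1 list is not shown to lack Lin28A in the other. The 50-nt step cannot resolve a motif within a hairpin. miRNA genes with near-identical copies elsewhere, such as those of the let-7 family, are uncertain, since the treatment of reads with several matches is not stated.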
